A study of Mus musculus with 6 samples.

Results

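The flavin-containing monooxygenases are described here in kidneys of male mice, comparing the diabetic db/db genotype with its non-diabetic db/m control. The members were Fmo1, Fmo2, Fmo4 and Fmo5, which make 4 of the 22180 genes measured. Each was represented by the probe set that names it alone with the highest mean signal over all 6 arrays, so the probe set was chosen by signal level, although each of the 4 genes had only 1 such probe set. The family itself was chosen by name, with the difference of Fmo5 in these data already known, so its p value gives a place in the fit over all genes and is not independent evidence.

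The arrays came from 3 db/db and 3 db/m male mice of the C57BL/KsJ strain, all aged 22 weeks, with 1 array per mouse. The mice, littermates of the 2 genotypes, entered at 10 weeks of age and were kept on standard chow for 12 weeks. The db allele is a mutation of the leptin receptor carried in every cell. The study reports higher body weight, blood glucose, urinary albumin and kidney weight in its db/db mice, with mild build-up of mesangial matrix. It names high insulin only as a general trait of the model. Effects of such exposures and of these kidney changes cannot be told apart from the loss of the receptor in the kidney itself. The sample labels name the tissue as kidney, the methods name renal cortex, and no pooling is stated. Signals are on the log2 scale, where a difference of 1 is a doubling. In bulk tissue, fewer cells of a type and less RNA per cell cannot be told apart.

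Flavin-containing monooxygenases are enzymes of the endoplasmic reticulum that hold FAD and use NADPH and oxygen to add an oxygen atom to nitrogen or sulfur in drugs, dietary amines and some endogenous compounds. They work beside the cytochromes P450 but take their electrons straight from NADPH, without a separate reductase. Fmo1 is a main form in kidney, and FMO1 oxidizes hypotaurine to taurine. Fmo2 is best known from lung. Fmo4 has few known substrates. Fmo5 differs from the others in chemistry, since human FMO5 inserts oxygen beside a ketone (a Baeyer-Villiger reaction) and is a poor catalyst of the usual amine and sulfide oxidations, and mice without Fmo5 stay leaner with age.

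One member, Fmo5, was lower in db/db kidneys, and Fmo1, Fmo2 and Fmo4 did not pass the test. Fmo5 was 2.57-fold lower in db/db mice, with no overlap between the groups. The other members had log2 differences between -0.21 and 0.045. At an adjusted p under 0.05 from limma, 1 of the 4 members was lower and 0 were higher. Over all genes, 0.289% were called lower and 0.194% were called higher.

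Fmo1, Fmo2 and Fmo4 lie in 1 cluster on chromosome 1, and Fmo5 lies apart from them on chromosome 3. The upstream sequence of Fmo5 is shown because it is the only member that passed the test, and those of Fmo4 and Fmo2 are shown as members of the cluster to set beside it. No upstream window of Fmo1 was available. Each line gives the 250 bases before a transcript start from RefSeq (GRCm38.p6), on the strand of the gene. Capitals mark matches on either strand to 6 short motifs. These were GGGCGG of the GC box, the CCAAT box, the core TATAAA of the TATA box, the letters GGTCA found in nuclear receptor sites, the letters GCGTG found in aryl hydrocarbon receptor sites and the letters GTTAAT found in HNF1 sites. No matches overlapped in these lines.
Fmo5, chr3:97628769-97629018, plus strand: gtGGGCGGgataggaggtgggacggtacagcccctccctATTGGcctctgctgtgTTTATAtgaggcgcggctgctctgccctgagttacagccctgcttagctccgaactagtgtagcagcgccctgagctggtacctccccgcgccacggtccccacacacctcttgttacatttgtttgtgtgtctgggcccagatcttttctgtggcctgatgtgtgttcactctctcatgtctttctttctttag
Fmo4, chr1:162812550-162812799, minus strand: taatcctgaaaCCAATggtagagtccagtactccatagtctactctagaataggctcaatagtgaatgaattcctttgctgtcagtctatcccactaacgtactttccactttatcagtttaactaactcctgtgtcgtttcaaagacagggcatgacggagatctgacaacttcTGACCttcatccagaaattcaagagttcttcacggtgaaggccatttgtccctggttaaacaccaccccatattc
Fmo2, chr1:162898759-162899008, minus strand: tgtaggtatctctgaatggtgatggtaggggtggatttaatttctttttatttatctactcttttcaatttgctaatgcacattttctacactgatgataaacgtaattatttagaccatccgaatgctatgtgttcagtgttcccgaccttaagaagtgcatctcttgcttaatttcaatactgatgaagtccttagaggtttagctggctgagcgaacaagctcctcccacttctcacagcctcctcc

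The Fmo5 window held 3 of these motifs, with GGGCGG on the strand shown and the CCAAT box and TATAAA on the opposite strand. Over all 32851 windows of the same length, 32.7% held GGGCGG, 33.8% held the CCAAT box and 12.4% held TATAAA. The Fmo4 window held the CCAAT box and GGTCA, and the Fmo2 window shown held 0 of the 6 motifs. A second start of Fmo2 had GGTCA in its window, a motif found in 35.2% of all windows. The motif GCGTG, found in 28.2% of all windows, and the motif GTTAAT, found in 6.43%, matched in 0 of these 4 windows. Bases G and C made up 56% of the Fmo5 window, 42.4% of the Fmo4 window and 39.6% of the Fmo2 window shown. RefSeq places the first base of the Fmo5 gene model upstream of this window, so the window belongs to 1 of several starts. The motif matches describe the letters of each window only.

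In db/m mice Fmo5 signal stood at 8.28, 8.56 and 8.70, and in db/db mice at 7.23, 7.24 and 6.99. All db/db mice lay below all db/m mice, and the highest db/db mouse lay 1.04 below the lowest db/m mouse. Over all genes, 7.62% had all db/db mice below all db/m mice. The mean was 8.51 ± 0.22 (SD, n = 3) in db/m mice and 7.15 ± 0.14 (SD, n = 3) in db/db mice. The log2 difference of -1.36 (standard error 0.14, limma 95% interval -1.67 to -1.06) had an adjusted p of 0.00424 over all genes. By p value Fmo5 ranked 12 among the 22180 genes, and by the size of its fall it ranked 29. With the thresholds of the study, which ask for an unadjusted p under 0.05 and at least a 1.5-fold change, Fmo5 again was the only member past them. There 0.807% of all genes were called lower with limma and 0.591% with the methods' t-test. The call at an adjusted p under 0.05 was lost when the Benjamini-Hochberg adjustment, which the methods do not name, was put on the methods' t-test (adjusted p = 0.286) and when all probe sets were tested in place of genes (adjusted p = 0.0687).

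**Figure D1:**
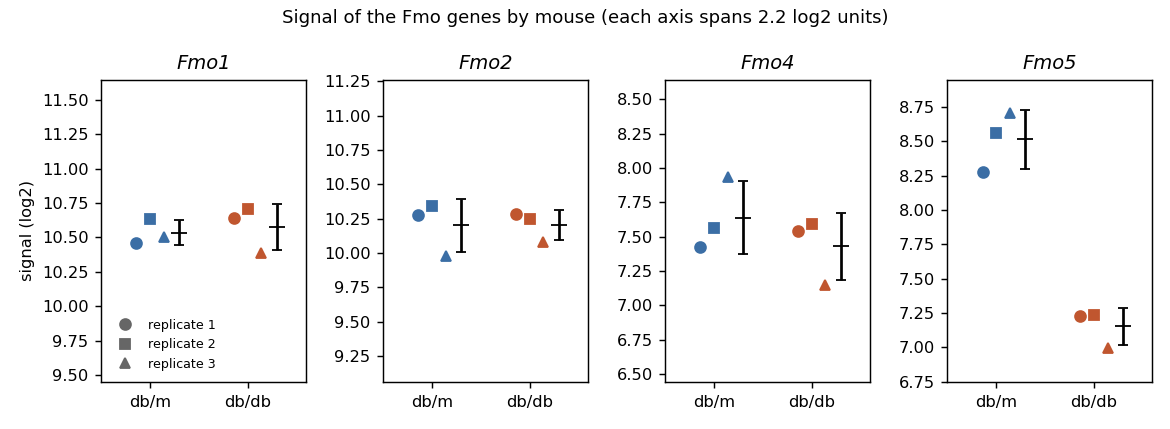
Signal on the log2 scale of each Fmo gene in the 3 db/m mice (blue) and the 3 db/db mice (orange), 1 marker per mouse, with the group mean and SD in black. The db/db mice of Fmo5 lie between 6.99 and 7.24, below the db/m mice at 8.28 to 8.70, while the groups overlap for the other genes.

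Fmo1 signal stood at 10.46, 10.64 and 10.50 in db/m mice, against 10.64, 10.71 and 10.39 in db/db mice. The groups overlapped, and the lowest and the highest of the 6 values both came from db/db mice. The means were 10.53 ± 0.09 (SD, n = 3) and 10.58 ± 0.17 (SD, n = 3). The log2 difference was 0.045 (standard error 0.12, limma adjusted p = 0.922), with a 95% interval from -0.22 to 0.31.

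Fmo2 signal was 10.28, 10.34 and 9.98 in db/m mice and 10.29, 10.25 and 10.08 in db/db mice. The db/db values all fell inside the range of the db/m values. The means were 10.20 ± 0.19 (SD, n = 3) and 10.21 ± 0.11 (SD, n = 3). The log2 difference was 0.0047 (standard error 0.13, limma adjusted p = 0.994), with a 95% interval from -0.28 to 0.29. The intervals of Fmo1 and Fmo2 did not reach a 1.5-fold change in either direction, which is 0.58 on the log2 scale.

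Fmo4 signal was 7.42, 7.56 and 7.93 in db/m mice and 7.54, 7.59 and 7.15 in db/db mice. Here db/m replicate 3 was the highest mouse and db/db replicate 3 the lowest, and the other 4 mice lay close together. The means were 7.64 ± 0.26 (SD, n = 3) and 7.43 ± 0.24 (SD, n = 3). The log2 difference of -0.21 (standard error 0.17, limma adjusted p = 0.70) did not pass, and its 95% interval of -0.58 to 0.16 reached a fall close to 1.5-fold. Without db/m replicate 3 it was -0.063, and without db/db replicate 3 it was -0.072.

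**Figure D2:**
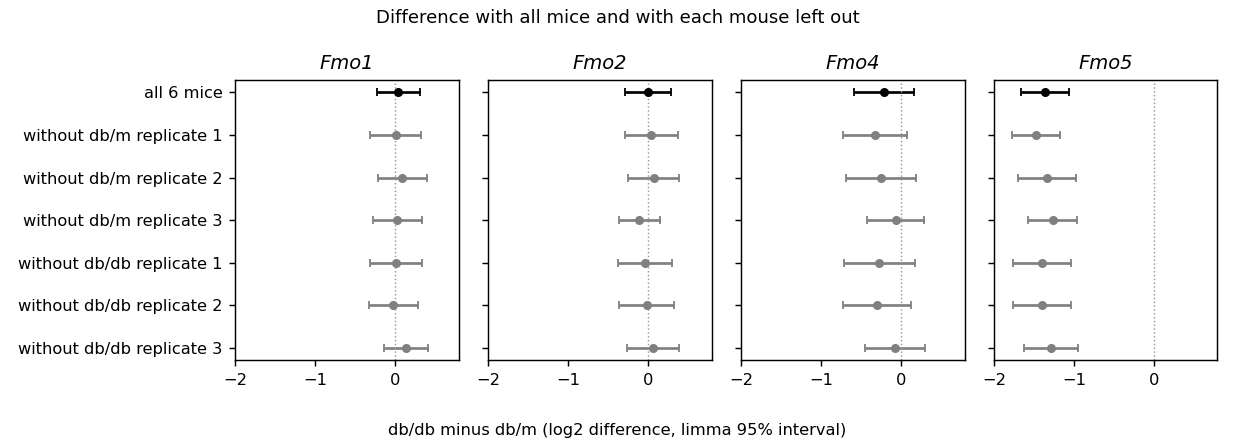
Difference of db/db minus db/m on the log2 scale for each Fmo gene, with all 6 mice (black) and with each mouse left out in turn (grey). Bars are 95% intervals from limma, which lie wholly below 0 for Fmo5 in every fit and cross 0 for the other genes.

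The same db/db mouse was lowest within its group for all members. Among the db/db mice, replicate 3 had the lowest signal for 4 of 4 members, with the smallest gap to the next mouse for Fmo2 and the largest for Fmo4. The share of all genes with this mouse lowest was not counted. For the dim family gene Fmo6 this mouse was the highest db/db mouse (2.94), and for Fmo9 db/db replicate 2 was the lowest (2.24). Among the db/m mice, replicate 1 was lowest for 3 of 4 members and replicate 3 for Fmo2. The range within a group ran from 0.17 for Fmo1 in db/m mice to 0.51 for Fmo4 in db/m mice, smaller in each case than the difference of Fmo5 between the groups. When any 1 mouse was left out, Fmo5 passed in 6 of 6 fits, with log2 differences from -1.48 to -1.27 and limma adjusted p from 0.00553 to 0.0297.

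**Figure D3:**
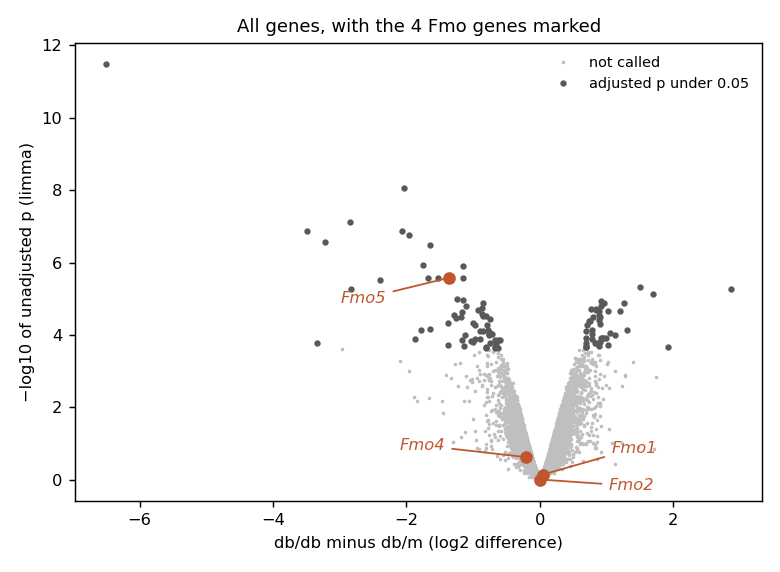
Each point is 1 of 22180 genes, with the log2 difference of db/db minus db/m across and the size of the unadjusted limma p (−log10) upward, and dark points pass an adjusted p under 0.05. Fmo5 lies among the called genes at -1.36, and Fmo1, Fmo2 and Fmo4 lie near 0 at the foot of the plot.

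Fmo6 and Fmo9, further genes of the family, gave little signal. Fmo6 had means of 2.75 ± 0.07 (SD, n = 3) in db/m mice and 2.76 ± 0.16 (SD, n = 3) in db/db mice, and Fmo9 had 2.55 ± 0.17 (SD, n = 3) in db/m mice and 2.36 ± 0.15 (SD, n = 3) in db/db mice. Both lie below the median signal of all probe sets, 3.37, and neither passed the test (limma adjusted p = 0.986 and 0.639). The nearest protein-coding genes beside Fmo5 in RefSeq are Chd1l, which overlaps the start of its gene model, and Prkab2, a subunit of the AMP-activated kinase. Chd1l had a log2 difference of 0.25 (standard error 0.13, limma adjusted p = 0.563) and Prkab2 one of 0.34 (standard error 0.12, limma adjusted p = 0.357). Neither passed, and both differences were positive where that of Fmo5 was negative.

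The genes most like Fmo5 across the 6 mice were sought among genes brighter than the median gene (4.36), by the root mean square difference of log2 signals after centring each gene on its own mean. The closest was 3110040M04Rik at 0.12, followed by Ccl5 at 0.15, Slc22a28 at 0.16, Degs2 at 0.16 and Snx31 at 0.19. Ccl5 is a chemokine that attracts T cells, Slc22a28 belongs to a family of organic anion transporters, and Degs2 is a desaturase and hydroxylase of sphingolipids. A gene close to Fmo5 by this measure has to be lower in db/db mice, so the direction of these 5 follows from how they were chosen. The signal of 3110040M04Rik was 5.69, 5.85 and 6.21 in db/m mice and 4.33, 4.57 and 4.25 in db/db mice, so that its highest and lowest mice were those of Fmo5.

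**Figure D4:**
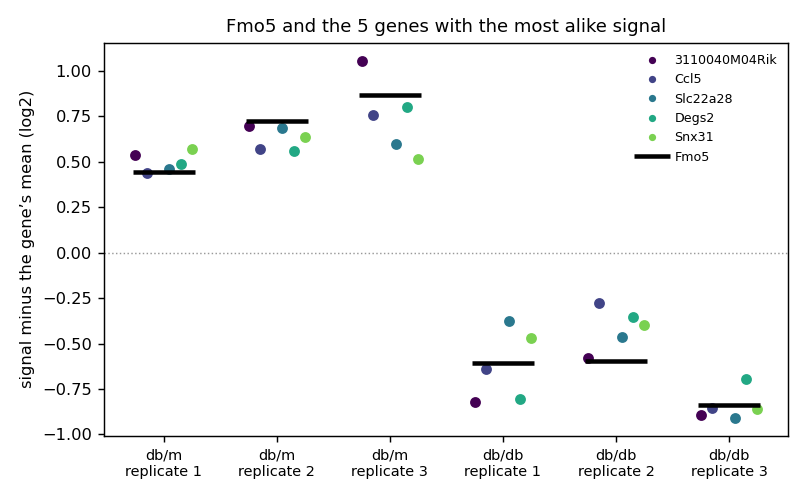
Signal of Fmo5 (black bars) and of the 5 genes closest to it (points) in each mouse, as the log2 signal minus the mean of that gene over the 6 mice. All 6 genes lie above 0 in the db/m mice and below 0 in the db/db mice, as their choice requires.

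Genes of related pathways, and regulators linked to Fmo genes, were read in 6 lists, of which 61 of 70 genes were measured. Of these, 1 was called higher (1.64%) and 3 were called lower (4.92%), beside 0.194% and 0.289% over all genes (limma, adjusted p under 0.05 over all genes). The lists were chosen with earlier results of these data known, so these shares are not independent evidence. The enzymes that supply NADPH had 1 of 12 measured genes lower and 0 higher, with a median log2 difference of -0.015, where all genes had 0.0050. Me1, malic enzyme, fell by 0.85 (standard error 0.13, limma adjusted p = 0.0270), from 9.72 ± 0.10 (SD, n = 3) to 8.86 ± 0.20 (SD, n = 3). The brightest others, Idh1 and Idh2, the NADP-dependent isocitrate dehydrogenases, had log2 differences of 0.083 and 0.064 and did not pass (limma adjusted p = 0.837 and 0.874). Me1 passed in 1 of 6 fits that leave out a mouse.

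Of the genes that take up riboflavin and turn it into FAD, 0 of 5 measured were called, with a median of 0.041. Rfk, riboflavin kinase, had a log2 difference of 0.041 and Slc52a3, a riboflavin transporter, one of -0.32 (limma adjusted p = 0.932 and 0.414). Of the other electron carriers of the endoplasmic reticulum and the outer mitochondrial membrane, 0 of 5 measured were called, with a median of -0.076. Cyb5b and Cyb5a, forms of cytochrome b5, had log2 differences of -0.045 and -0.076 (limma adjusted p = 0.919 and 0.831).

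Genes that make, carry or conjugate taurine, or that handle the sulfur amino acids upstream of it, had 1 of 9 lower and 0 higher, with a median of -0.075. Csad, the decarboxylase that forms hypotaurine, fell by 0.79 (standard error 0.11, limma adjusted p = 0.0217), from 8.89 ± 0.12 (SD, n = 3) to 8.11 ± 0.10 (SD, n = 3). The brightest others were Slc6a6, the taurine transporter, with a log2 difference of 0.012, and Cth, which forms cysteine, with 0.0027 (limma adjusted p = 0.980 and 0.996). Csad passed in 1 of 6 fits that leave out a mouse.

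Genes for choline, carnitine and trimethylamine handling had 1 of 13 measured higher and 0 lower, with a median of -0.040. Bbox1, the last enzyme of carnitine synthesis, rose by 1.13 (standard error 0.17, limma adjusted p = 0.0309), from 4.42 ± 0.14 (SD, n = 3) to 5.55 ± 0.36 (SD, n = 3). Aldh9a1, another enzyme of carnitine synthesis, and Slc22a2, an organic cation transporter, were the brightest others, with log2 differences of -0.11 and -0.49 (limma adjusted p = 0.744 and 0.0891). Of the transcription factors and receptors linked to Fmo genes, 1 of 17 measured was lower and 0 were higher, with a median of 0.12. Esr1, the estrogen receptor, fell by 0.89 (standard error 0.13, limma adjusted p = 0.0270), from 7.22 ± 0.17 (SD, n = 3) to 6.32 ± 0.18 (SD, n = 3). Hnf4a, a nuclear receptor of proximal tubule and liver, and Nfe2l2, which encodes NRF2, had log2 differences of -0.10 and 0.12 (limma adjusted p = 0.785 and 0.749). Without 1 mouse, Bbox1 passed in 1 of 6 fits and Esr1 in 0 (adjusted p from 0.0590 to 0.0989).

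**Figure D5:**
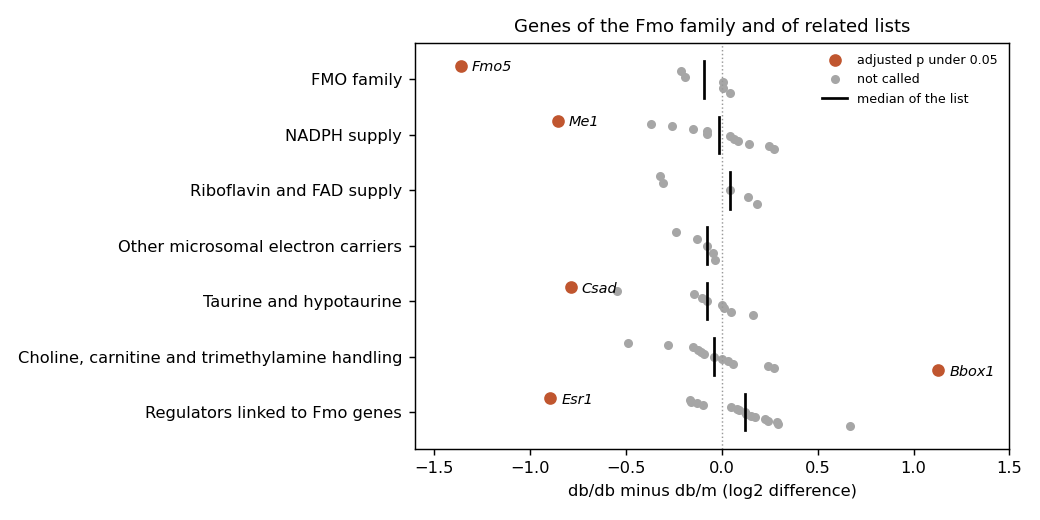
Log2 difference of db/db minus db/m for each measured gene of the Fmo family and of 6 related lists, with called genes in orange and named, other genes in grey, and the median of each list as a black line. Fmo5, at -1.36, is the only called gene of its family, and 4 of the 61 genes of the other lists are called.

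Summed marker signals lay apart between the groups for 8 of the 12 lists of cell type markers. How often sums of other genes lie apart was not counted. Of the single markers, 31 of 86 had groups apart, higher or lower in db/db mice. Over all genes, 7.62% had all db/db mice below all db/m mice, and the share above was not counted. Of the 86 measured marker genes, 3 were called lower and 0 higher, beside 0.289% and 0.194% of all genes. Summed on the linear scale, 7 measured markers of the last part of the proximal tubule (S3) ranged from 7729 to 8095 in db/db mice and from 9219 to 9734 in db/m mice, and 2 of them, Slc7a13 and Slc22a7, were called lower. Without 1 mouse, each of these passed in 1 of 6 fits. The mean sum fell by 1591 and Slc7a13 alone fell by 1025, while Slc5a1 and Agt had positive log2 differences of 0.52 and 0.31 and did not pass (limma adjusted p = 0.151 and 0.597). The 10 markers of its earlier parts (S1 and S2) overlapped, at 22082 to 23138 against 20864 to 23065, with 0 called. Sums were also lower in db/db mice for T cells (57.4 to 67.2 against 86.6 to 104, 1 of 6 called, Cd3e, which passed in 0 fits without 1 mouse, adjusted p from 0.0889 to 0.187) and macrophages (392 to 461 against 479 to 517, 0 of 7 called). The sum of liver genes was lower in db/db mice (3350 to 3835 against 4036 to 4656, 0 of 8 called). Cyp2e1 made up most of this sum, and its mean went from 3842 to 2884 on the linear scale. The mean sum went from 4398 to 3603, a smaller fall than that of Cyp2e1, so the other genes together did not fall. The lower sum therefore describes Cyp2e1 and not the liver list as a set. Of the 8 genes, 6 had positive log2 differences, among them Ttr at 0.84 and Alb at 0.48, which did not pass (limma adjusted p = 0.107 and 0.465). Sums were higher for thick limb and distal tubule (8892 to 10034 against 7416 to 7817), collecting duct (2312 to 2640 against 1934 to 2304), podocytes (795 to 853 against 677 to 770) and fibroblasts and mural cells (1821 to 1874 against 1561 to 1723), with 0 called in these 4 lists. The mean podocyte sum rose by 106 and Podxl alone by 75.3, while Wt1 and Synpo had log2 differences of 0.042 and 0.046. The higher sum of fibroblasts and mural cells came with Rgs5, a pericyte gene, whose mean went from 375 to 585 on the linear scale, while Col3a1 and Dcn, which encode matrix proteins of fibroblasts, had log2 differences of -0.50 and -0.26 and did not pass (limma adjusted p = 0.212 and 0.653). The sums of endothelial, adipocyte and adrenal markers overlapped, and the adrenal marker Cyp11b1 was near the floor at means of 1.77 and 1.83. In db/m mice Pck1 made up 2751 of the mean adipocyte sum of 3429, and its mean in db/db mice was 3070. Of the 7 measured adipocyte markers, 6 had negative log2 differences, with a median of -0.25 and 0 called. The part of these cell types in the fall of Fmo5 was not tested.

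All measured markers of tubule, podocytes and endothelium had mean signals above that of the median gene. Array medians lay between 3.36 and 3.43 and 0 pairs of arrays were identical. The fat cell markers Cidec and Retn stood at 5.53 and 5.57 in db/m replicate 2 and between 2.75 and 3.61 in the other 5 mice. Without that mouse the log2 difference of Fmo5 was -1.34 (limma adjusted p = 0.0177), that of Fmo1 was 0.096 and that of Fmo2 was 0.076. In db/m replicate 2 Fmo1 and Fmo2 had the highest signal of their group.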

How the data were processed

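Kidney RNA of 3 db/m and 3 db/db mice was measured with 100 ng of RNA and 1 Affymetrix array per mouse. The authors deposited log2 signals, which the submitters' processing notes credit to RMA in Affymetrix Expression Console, a method that corrects background, normalizes across arrays and summarizes the probes of a set. Version, filter and genome build are not given in the sources used here. RMA compresses differences near background, so folds of dim genes are understated. The 41345 probe set identifiers do not belong to the array named in the methods. Gene names came from the annotation that they match, in which 23521 probe sets name 1 gene. RefSeq (GRCm38.p6) matched 21994 of the 22180 genes and gave chromosomes, neighbours and upstream sequences.

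Groups were compared with limma 3.58.1 in R 4.3.3 (lmFit and eBayes, db/db minus db/m, no covariate), adjusted by Benjamini-Hochberg over 22180 genes. The intervals are at 95%. The smallest p that an exact permutation of 3 mice against 3 allows is 0.1, so no such test was used. The script was tested on simulated data. Named genes were the members, their family, called genes and the 2 brightest others of each related list, and the 5 genes most like a called member. Chd1l and Prkab2 were added as neighbours of Fmo5, and Cidec and Retn were named after their values were seen. Members and lists were chosen with earlier results of these data known. Alternatives were other normalization, centring, filter, variance model, test, probe set rule, features tested, threshold, a replicate block, and each mouse left out.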

Additional observations from a re-analysis of the deposited data

How the results depend on the processing

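Fmo5 was lower in db/db mice in 15 of 15 alternatives and passed the threshold in 13. It did not pass with the methods' t-test after a Benjamini-Hochberg adjustment (log2 difference -1.36, adjusted p = 0.286), although it passed the unadjusted threshold that the methods give, or when all probe sets were tested in place of genes (-1.36, adjusted p = 0.0687), where the number of members called was 0 in each. With the adjusted t-test 2 genes were called in all, against 107 genes as reported, and in the test of all probe sets 9 probe sets were called. The cause was not tested. Fmo1, Fmo2 and Fmo4 passed in 0 of 15 alternatives, and the sign of Fmo2 turned with quantile normalization (-0.0029). Without 1 mouse the log2 difference ran from -0.019 to 0.14 for Fmo1, from -0.10 to 0.076 for Fmo2, from -0.32 to -0.063 for Fmo4 and from -1.48 to -1.27 for Fmo5, the number of members called stayed at 1, and 28 to 69 genes were called in all. Leaving out db/db replicate 2 turned the sign of Fmo1, and leaving out db/m replicate 3, db/db replicate 1 or db/db replicate 2 turned that of Fmo2. Of the called genes of the related lists, Me1, Csad and Esr1 passed in 7 of 15 alternatives and Bbox1 in 8. At an adjusted p under 0.1, 193 genes were called in all. With the replicate number as a block, 61 genes were called in all and Fmo5 still passed (adjusted p = 0.0271). Mice with the same number share nothing in the labels, and their deviations from the group means correlated at -0.0041, -0.028 and -0.099. Quantile normalization and centring moved the median of all genes by -0.013 and 0.015. The 3 arrays per group limit the precision, and for Fmo6 and Fmo9 the background does too.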
